A study of Mus musculus with 12 samples.

Results

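Potassium channel genes were taken as every protein-coding gene in the count table whose symbol begins with *Kcn*, which gave 94 of 55487 genes. By symbol, 40 of them encode voltage-gated pore subunits, 17 auxiliary subunits, 15 inward rectifiers (*Kcnj*), 14 tandem-pore channels (*Kcnk*) and 8 channels gated by intracellular calcium or sodium. Their mRNA was measured by RNA-seq in 12 libraries from microglia, the resident macrophages of the brain, from mice of the YARG strain at postnatal day 13. YARG mice carry a yellow fluorescent protein (YFP) reporter for ARG1, and microglia from the basal forebrain and striatum were sorted into YFP-positive (ARG1+) and YFP-negative (ARG1-) cells. All of the sorted cells were negative for CD206, a macrophage marker, and positive for CX3CR1, and both populations came from animals that carry the reporter. Each population was sampled in 3 female and 3 male libraries, and tissue of several mice of 1 sex was pooled before the sort. No treatment is named in the labels, and the comparison asks how the ARG1+ subset differs from its ARG1- neighbors.

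Potassium channels let potassium ions leave a cell down their gradient and thereby hold or restore a negative membrane potential. Tandem-pore channels are open at rest and carry the leak current, inward rectifiers pass current best near the resting potential, and voltage- and calcium-gated channels open when the cell is depolarized or its calcium rises. In microglia, potassium currents are known for setting the resting potential, for shaping surveillance by fine processes, and for the potassium efflux that precedes activation of the NLRP3 inflammasome.

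Library totals ranged from 28356659 to 60625170 counts, and 3 counts, used here as the floor of detection in a library, corresponded to 0.0511 to 0.102 CPM. CPM is the count relative to the library total after scaling by the trimmed mean of M values (TMM). Errors from counts cover counting error only, because the reads carried no molecular identifiers. *Xist* was counted in the 6 libraries labelled female and had 0 counts in the 6 labelled male. Of 11 microglial marker genes, all were over the floor in all 12 libraries, and their summed level was 64500 to 89700 CPM in ARG1- and 54800 to 67100 CPM in ARG1+ libraries. *Mrc1*, the gene of the CD206 protein that was gated out, was present at a mean of 121 ± 16.1 CPM in ARG1- and 147 ± 46.4 CPM in ARG1+ libraries (SD, n = 6 each). Genes of any kind over the floor numbered 15245 to 16859 in ARG1- and 16565 to 18123 in ARG1+ libraries. Mitochondrial genes held 0.499 ± 0.132% of counts in ARG1- and 0.267 ± 0.0852% in ARG1+ libraries (SD, n = 6 each), with 1 ARG1- library, female 1 at 0.247%, inside the ARG1+ range of 0.147% to 0.396%. The part of these differences in the results was not tested.

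The pore of each of these channels is lined by a loop that contains the selectivity signature, a threonine or serine, any residue, a glycine, an aromatic residue or leucine, and a glycine. The signature was searched in the translated coding sequence of all 94 genes (GENCODE M21 on GRCm38, 1 principal transcript a gene). It occurred 2 times in each of the 14 *Kcnk* genes, as their name implies, and in none of the 17 auxiliary genes. It occurred 1 time in each of the 15 inward rectifiers, the 8 calcium- or sodium-activated genes and 38 of the 40 voltage-gated genes, and 2 times in the other 2. In those 2 genes the first match has leucine in the middle, and the second has tyrosine or phenylalanine. A match of the signature alone does not show a pore loop, so these genes are not read as having 2 pore loops. The loops below are from members on which the results turn. They are coding exon sequence, 30 bases each, with the codons for the glycine, middle and glycine residues in capitals.
Kcnk13 loop 1, chr12:99966265-100061015 (+), joined over an intron: gtggtttctaccataGGGTTTGGGatgaca
Kcnk12 loop 1, chr17:87746828-87797079 (-), joined over an intron: gtggtgtcgaccataGGTTTCGGCatgaca
Kcnk12 loop 2, chr17:87746447-87746476 (-): accttcagcaccatcGGCTTCGGGgacctg
Kcnk6 loop 1, chr7:29225854-29232177 (-), joined over an intron: cttgtcaccaccgtgGGCTATGGCtacacg
Kcnk6 loop 2, chr7:29225530-29225559 (-): tctctgtccaccattGGCCTAGGGgactac
Kcnj2 loop, chr11:111072198-111072227 (+): acccagacaaccattGGCTATGGTttcagg
Kcnd1 loop, chrX:7824947-7831184 (+), joined over an intron: accatgaccacacttGGGTATGGAgatatg
Kcna3 loop, chr3:107037602-107037631 (+): accatgacaactgttGGTTATGGTgatatg
Kcnma1 loop, chr14:23528407-23528436 (-): acaatgtctacagtgGGTTATGGGgacgtt

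*Kcnk13* and *Kcnk12* have phenylalanine in the middle of the first loop, whereas *Kcnk6* has tyrosine there and leucine in the second. In the first loop, 11 of the 14 *Kcnk* genes have tyrosine and 3 have phenylalanine. *Kcnk13* and *Kcnk12* share 25 of 30 bases in the first loop, and the longest run of bases their annotated transcripts share exactly was 26.

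Of the 94 potassium channel genes, 49 were over 3 counts in at least 1 library. No count was found in any library for 28 genes, and 17 others had counts but never more than 3 in a library. Another 38 were over 3 counts in some libraries, and 11 were over 3 counts in all 12. With a floor of 0 in place of 3 counts, 12 genes were present in every library, *Kcnip4* being the addition. Of the 40 voltage-gated genes, 15 were at 0 throughout and 3 were in every library (*Kcnd1*, *Kcna3* and *Kcng2*). The genes present in every library also included 3 tandem-pore (*Kcnk6*, *Kcnk13*, *Kcnk12*), 2 inward rectifier (*Kcnj2*, *Kcnj14*), 2 calcium-activated (*Kcnma1*, *Kcnn4*) and 1 auxiliary gene (*Kcnip3*). Per library, 16 to 27 members were over the floor in ARG1- and 19 to 30 in ARG1+ microglia, ranges that overlap. The number of genes of any kind over the floor, given above, also ranged higher in ARG1+ libraries. These numbers did not go together in every library. ARG1+ male 11 had 18123 genes of any kind and 24 members over the floor, and ARG1- female 1 had 16269 and 27. The part of the number of genes of any kind was not tested.

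**Figure D1:**
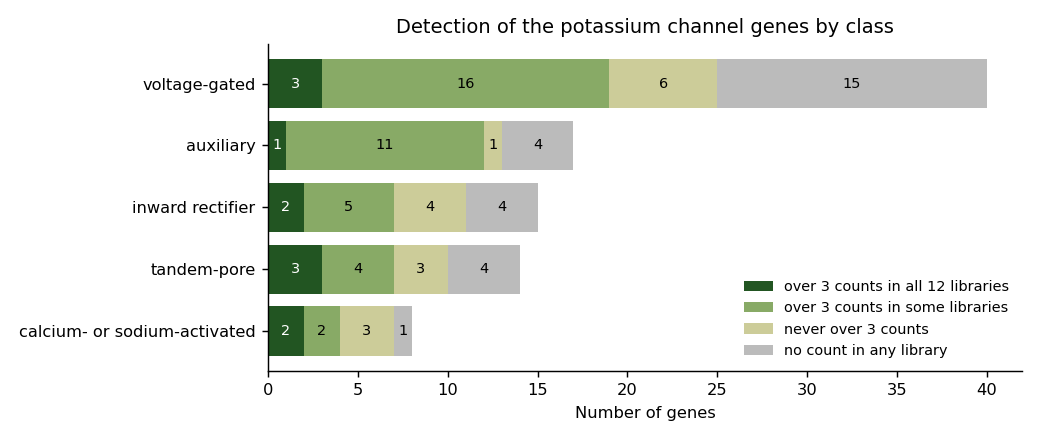
Number of potassium channel genes (horizontal axis) in each class (vertical axis), divided by detection over the 12 libraries. Voltage-gated genes hold 15 of the 28 genes without a count, and 11 genes in all were over 3 counts in every library.

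Transcripts of 4 genes made up most of the potassium channel message. *Kcnk6*, *Kcnk13*, *Kcnd1* and *Kcnk12* together held 89.2% to 92.8% of all counts on the 94 genes in ARG1- libraries and 86.1% to 90.0% in ARG1+ libraries, and tandem-pore genes alone held 68.8% to 82.3% and 73.7% to 78.1%. The summed level of the 94 genes was 676 ± 120 CPM in ARG1- and 684 ± 78.1 CPM in ARG1+ microglia (SD, n = 6 libraries each), a difference smaller than the spread. Levels were compared between genes per kilobase of exon (RPKM), which changes the order of *Kcnd1* and *Kcnk12*. In ARG1- microglia, the mean level was 63.9 ± 16 RPKM for *Kcnk13*, 61.2 ± 12.5 for *Kcnk6*, 32.1 ± 7.62 for *Kcnk12* and 18.8 ± 4.0 for *Kcnd1* (SD, n = 6 libraries). *Kcnk13* and *Kcnk6* did not differ beyond their spread, and the fifth gene, *Kcnip3*, followed at 3.80 ± 2.36 RPKM. In ARG1+ microglia the levels were 60.6 ± 5.67 for *Kcnk13*, 68.6 ± 9.84 for *Kcnk6*, 21.9 ± 5.36 for *Kcnk12*, 17.2 ± 4.24 for *Kcnd1* and 4.97 ± 1.10 RPKM for *Kcnip3* (SD, n = 6 libraries). Here *Kcnk12* and *Kcnd1* lay within their spread of each other.

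**Figure D2:**
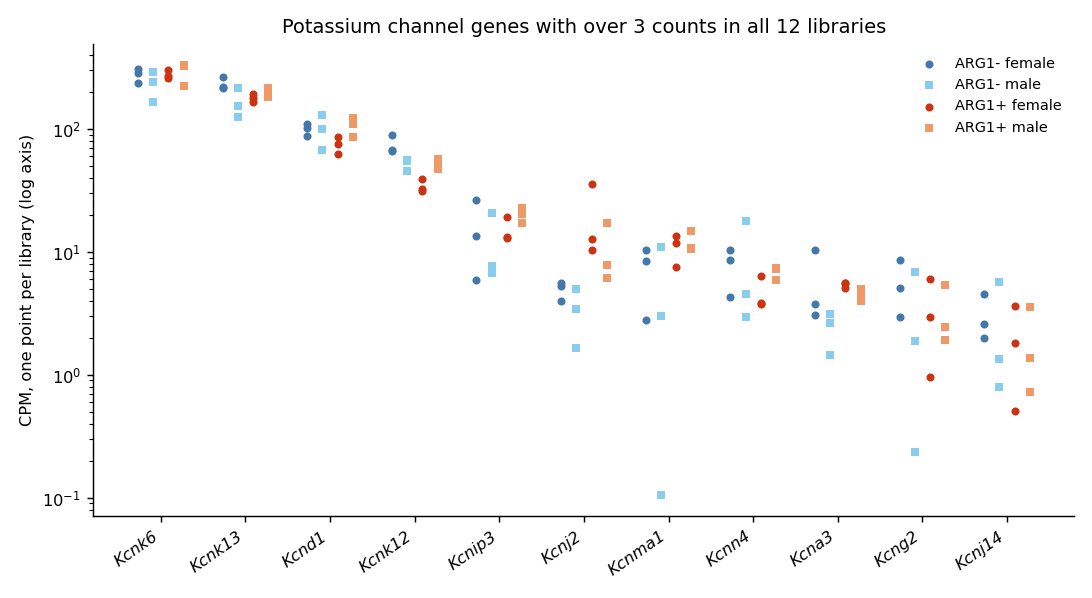
Level in CPM (log axis) of the 11 potassium channel genes over 3 counts in all 12 libraries, 1 point per library, colored by population and sex. *Kcnk6* lies between 165 and 329 CPM, and *Kcnj2* is the gene whose ARG1+ points all lie above its ARG1- points.

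ARG1+ and ARG1- microglia were compared by edgeR's quasi-likelihood test with sex as a second term, and p-values were adjusted over all 16908 genes tested. Of the 94 members, 28 passed the filter on low counts. *Kcnj2* was higher in ARG1+ microglia, *Kcne1l* was lower, and the other 26 were not called. *Kcne1l* passed the filter through ARG1- libraries alone, so it could only be fitted lower, and its call is given as a description. The members' share of calls was thus 7.14%, against 15.9% of all genes tested. In 1 direction at a time, 6.44% of all genes tested were called higher and 9.42% lower. *Kcnj2* was also the only tested member whose libraries of the populations did not overlap, against 10% of all genes tested. At an unadjusted p under 0.05 there were 5 members (17.9%), among them *Kcnj2*, *Kcne1l*, *Kcnip1* and *Kcnk12*, against 29.1% of all genes tested. The median log2 fold change over the 28 members was 0.06, the same as over all genes, with 15 fitted higher and 13 lower. DESeq2, which also tests genes that the edgeR filter leaves out, called 4 of the 32 members to which it gave an adjusted p (12.5%), against 21.9% of all such genes. Of the 4, 2 were higher, *Kcnj2* among them, and 2 were lower, *Kcne1l* and *Kcnip1*.

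**Figure D3:**
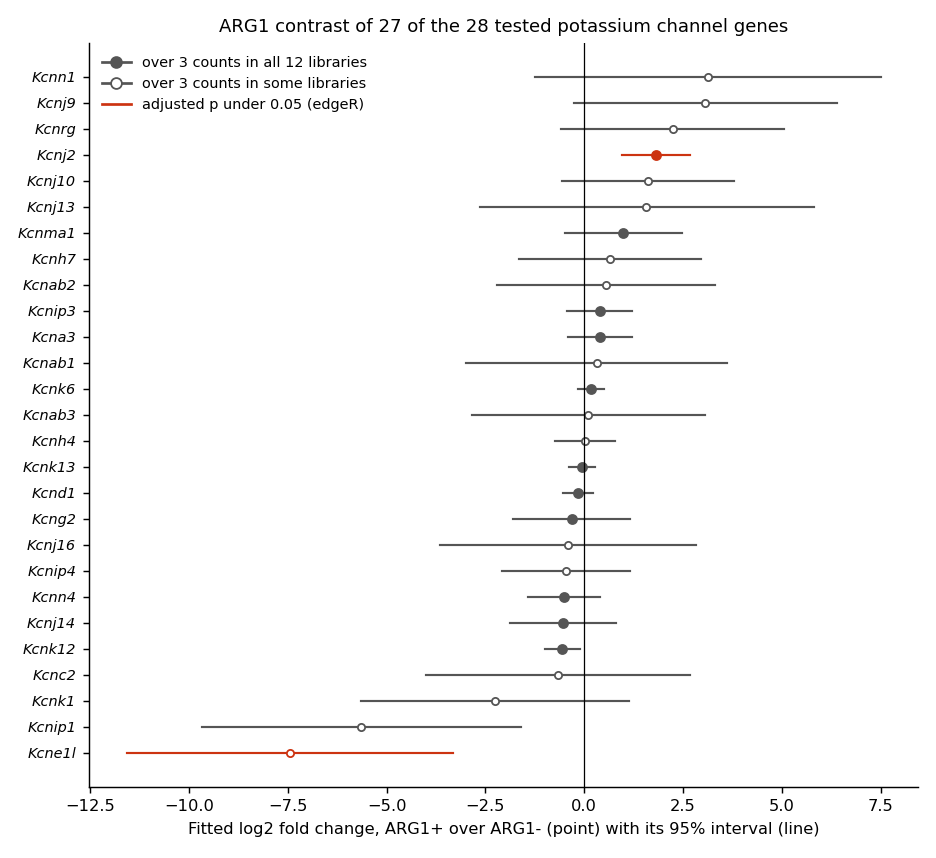
Fitted log2 fold change of ARG1+ over ARG1- microglia (horizontal axis) with its 95% interval for 27 of the 28 tested potassium channel genes. *Kcnj2* and *Kcne1l* are the genes past an adjusted p of 0.05, and genes counted in only some libraries (open points) have the widest intervals.

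*Kcnj2* (ENSMUSG00000041695, chr11:111066164-111076821, plus strand, GRCm38) encodes Kir2.1, a strong inward rectifier that clamps cells near the potassium equilibrium potential. In ARG1- microglia it had 5.55, 5.29 and 4.02 CPM in the female libraries and 3.41, 4.95 and 1.66 CPM in the male libraries. In ARG1+ microglia it had 35.7, 12.8 and 10.4 CPM in females and 6.16, 7.79 and 17.1 CPM in males. Every ARG1+ library therefore lay above every ARG1- library, and ARG1+ female 7 stood far above the other 5. The means were 4.15 ± 1.46 and 15 ± 10.9 CPM (SD, n = 6 libraries each), which rested on 56 to 236 counts in an ARG1- library and 271 to 1127 in an ARG1+ library. The log2 fold change was 1.81 (SE 0.40, 95% interval 0.95 to 2.67, edgeR adjusted p = 0.00956). Without ARG1+ female 7 it was 1.47, with an adjusted p of 0.0249 by edgeR. It stayed past the threshold in all 12 fits that omitted 1 library, at 1.47 to 2.01. The log2 fold change was 1.99 in females and 1.63 in males, neither of which passed on its own in edgeR (adjusted p = 0.0659 and 0.122), and their difference was 0.36 (95% interval -1.40 to 2.11). Per kilobase, *Kcnj2* stayed low, at 0.762 ± 0.268 RPKM in ARG1- and 2.75 ± 2.0 RPKM in ARG1+ microglia (SD, n = 6 libraries each). In bulk libraries, more cells that express a gene and more RNA in each such cell cannot be told apart.

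*Kcnk12* (ENSMUSG00000050138, chr17:87745801-87797994, minus strand) encodes THIK-2, a tandem-pore subunit related to the halothane-inhibited channel THIK-1. In ARG1- microglia it had 88.8, 66.8 and 67.9 CPM in the female libraries and 56.3, 54.6 and 45.5 CPM in the male libraries. In ARG1+ microglia it had 31.5, 32.4 and 39.1 CPM in females and 52.6, 46.9 and 56.9 CPM in males. The female populations did not overlap, whereas the male ones did, and the highest of all 4 groups was ARG1- female and the lowest ARG1+ female. The share of all genes that separate with 3 libraries against 3 was not computed. Over both sexes the log2 fold change was -0.56 (SE 0.20) and was not called (edgeR adjusted p = 0.0821). In females, *Kcnk12* fell by 1.12 on the log2 scale (SE 0.17, 95% interval -1.49 to -0.74, edgeR adjusted p = 0.00819), from 74.5 ± 12.4 to 34.4 ± 4.15 CPM (SD, n = 3 libraries each). In males the log2 fold change was 0.00 (95% interval -0.37 to 0.37), from 52.1 ± 5.81 to 52.1 ± 5.0 CPM (SD, n = 3 libraries each). The difference between these effects was -1.12 (SE 0.24, 95% interval -1.65 to -0.59). It did not pass edgeR's test after adjustment (adjusted p = 0.31), and DESeq2 called it (adjusted p = 0.00146). Without ARG1+ female 7, the effect in females was -1.02 and was no longer called (edgeR adjusted p = 0.0632). The other 11 libraries could each be left out with the call in females kept.

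*Kcnk13* (ENSMUSG00000045404, chr12:99964499-100062682, plus strand) encodes THIK-1, known as the main resting potassium conductance of microglia, which is enhanced through the purinergic receptor P2RY12. It had 264, 219 and 216 CPM in ARG1- females, 215, 155 and 125 CPM in ARG1- males, 179, 193 and 165 CPM in ARG1+ females, and 182 to 215 CPM in ARG1+ males. The female populations did not overlap, with ARG1+ lower, and the male populations did. Over both sexes the log2 fold change was -0.06 (SE 0.16, 95% interval -0.39 to 0.28, edgeR adjusted p = 0.854), and its sign turned in 5 alternatives, among them the male libraries alone (0.27). The effect was -0.38 in females (edgeR adjusted p = 0.237) and 0.27 in males (edgeR adjusted p = 0.412), and neither was called. Their difference of -0.65 (95% interval -1.21 to -0.09) was not called by edgeR (adjusted p = 0.491). The ratio of *Kcnk12* to *Kcnk13*, which no scaling between libraries can move, was 30.5 to 33.7 *Kcnk12* counts per 100 *Kcnk13* counts in ARG1- females and 16.8 to 23.8 in ARG1+ females, ranges that do not overlap. In males it was 26.2 to 36.3 in ARG1- and 21.8 to 31.3 in ARG1+ libraries, which overlap. How often the ratios of other gene pairs separate in this way was not computed.

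*Kcnk6* (ENSMUSG00000046410, chr7:29221926-29232515, minus strand) encodes TWIK-2, a tandem-pore channel known in macrophages for potassium efflux upstream of NLRP3. Its lowest, median and highest values were 165, 262 and 309 CPM in ARG1- and 224, 284 and 329 CPM in ARG1+ libraries. The ranges overlapped over most of their length, and the log2 fold change was 0.17 (SE 0.15, 95% interval -0.16 to 0.50, edgeR adjusted p = 0.5). *Kcnk1*, the fourth tandem-pore gene tested, encodes the weakly conducting TWIK-1 and had 0 counts in 2 ARG1- and 3 ARG1+ libraries, with at most 2.10 CPM elsewhere. Of the 4 tandem-pore genes tested, edgeR and DESeq2 called 0 over both sexes, and 1 (*Kcnk12*) had an unadjusted p under 0.05. Against the 15.9%, 21.9% and 29.1% of all genes given above for these rules, counts over so few genes say nothing particular to the class.

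**Figure D4:**
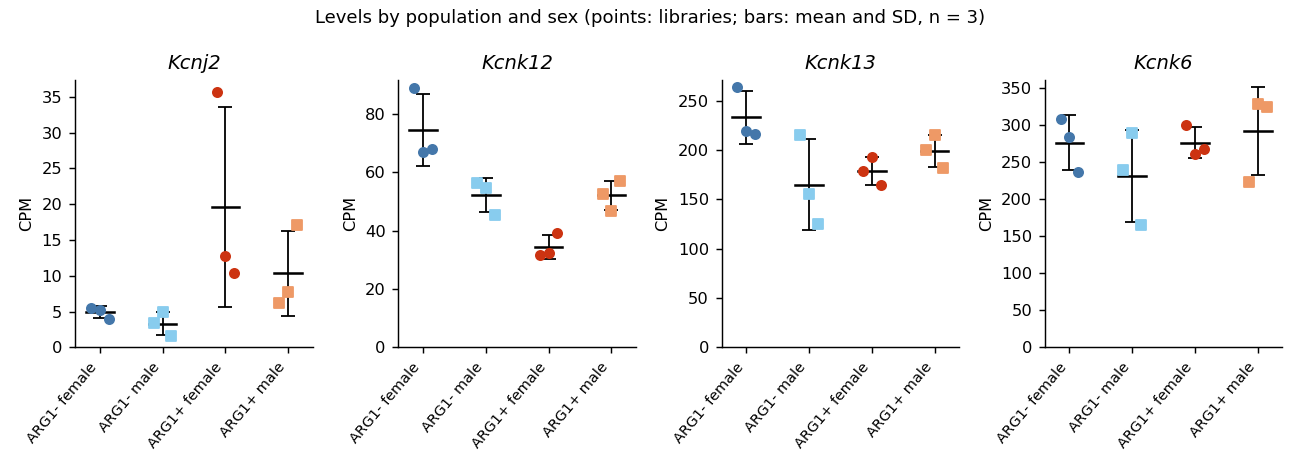
CPM of *Kcnj2*, *Kcnk12*, *Kcnk13* and *Kcnk6* in the 4 groups of population and sex, with 1 point per library and the mean and SD of 3 libraries. *Kcnj2* is higher in both ARG1+ groups, and *Kcnk12* is lowest in ARG1+ females, at 31.5 to 39.1 CPM.

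Among the voltage-gated genes, *Kcnd1* (ENSMUSG00000009731, chrX:7822289-7838280, plus strand) encodes Kv4.1, an A-type channel that inactivates quickly. It had 67.8 to 131 CPM in ARG1- and 63.2 to 124 CPM in ARG1+ libraries, and a log2 fold change of -0.15 (SE 0.17, edgeR adjusted p = 0.619). *Kcna3*, which encodes Kv1.3, the outward rectifier best known from activated microglia and T cells, had 10.4 CPM in ARG1- female 13, 1.44 to 3.78 CPM in the other ARG1- libraries and 4.02 to 5.58 CPM in ARG1+ libraries. Its ARG1+ values were closely spaced, at 4.93 ± 0.624 CPM (SD, n = 6 libraries), and 5 of 6 ARG1- libraries lay below all of them. With all 12 libraries the log2 fold change was 0.39 (SE 0.37, 95% interval -0.41 to 1.2, edgeR adjusted p = 0.533). Without ARG1- female 13 it was 0.78, with an edgeR adjusted p of 0.103. Only that ARG1- library did not lie below the ARG1+ range, so its omission removes the overlap, and this fit is given as a description. *Kcng2*, a silent subunit that modifies other channels, had 0.237 to 8.67 CPM in ARG1- and 0.968 to 6.05 CPM in ARG1+ libraries, and 9.10% of its exon bases also lie in another annotated gene.

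*Kcnc2* encodes a fast delayed rectifier of neurons. It had 0 counts in 4 libraries and up to 4.89 CPM in the others, with no separation of the populations. *Kcna5*, which encodes Kv1.5 and has been described in microglia, had 0 counts in all 12 libraries. Of the 7 voltage-gated genes tested, edgeR called 0, 1 had an unadjusted p under 0.05, and DESeq2 called 1 of the 9 it tested, beside 15.9%, 29.1% and 21.9% of all genes.

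Both of the calcium-activated genes present throughout were not called. *Kcnma1*, which encodes the large-conductance BK channel, had 0.106, 3.04 and 10.9 CPM in ARG1- males, 10.3, 2.77 and 8.45 CPM in ARG1- females, and 7.48 to 14.8 CPM in ARG1+ libraries. In 3 ARG1- libraries *Kcnma1* lay below all ARG1+ libraries and in 3 within their range, and the log2 fold change was 0.99 (SE 0.68, 95% interval -0.48 to 2.46, edgeR adjusted p = 0.371). Of its exon bases, 5.98% also lie in another annotated gene. *Kcnn4*, which encodes the intermediate-conductance channel KCa3.1 of macrophages and microglia, had 2.98 to 17.9 CPM in ARG1- and 3.79 to 7.36 CPM in ARG1+ libraries, with a log2 fold change of -0.52 (SE 0.42, edgeR adjusted p = 0.455). *Kcnn1*, a small-conductance subunit, was over the floor in 4 libraries only, with 110 counts in ARG1+ female 7 and 51 in ARG1- female 2. Of the 3 genes of this class that were tested, edgeR and DESeq2 called 0 over both sexes, and 0 had an unadjusted p under 0.05, which cannot be told from the 15.9%, 21.9% and 29.1% of all genes with 3 genes.

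The remaining inward rectifiers were sparse. *Kcnj14*, a strong rectifier of the Kir2 group, was present in every library at 0.793 to 5.74 CPM in ARG1- and 0.510 to 3.61 CPM in ARG1+ microglia, with a log2 fold change of -0.54 (SE 0.62, edgeR adjusted p = 0.615). *Kcnj10* and *Kcnj16* encode Kir4.1 and Kir5.1, which are known from astrocytes and oligodendrocytes. *Kcnj10* had 0 to 2.75 CPM in ARG1- and 0.826 to 3.93 CPM in ARG1+ libraries, with a log2 fold change of 1.61 (SE 1.01, edgeR adjusted p = 0.319). *Kcnj16* had 0 counts in 3 ARG1- and 1 ARG1+ libraries and up to 4.71 CPM in the others. Beside them, the 9 astrocyte marker genes summed to 183 to 226 CPM in ARG1- and 131 to 152 CPM in ARG1+ libraries, most of which was *Slc1a3* (176 ± 20.1 and 131 ± 4.95 CPM, SD, n = 6 libraries each). *Aqp4*, a defining astrocyte marker, had means of 1.13 and 0.777 CPM. The part of other cells in the *Kcnj10* and *Kcnj16* counts was not tested.

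*Kcnj9*, a subunit of G protein-gated channels of neurons, had 2.96 CPM in ARG1- male 5, at most 0.0998 CPM in the other ARG1- libraries, and 0.474 to 5.40 CPM in ARG1+ libraries. Thus 5 of 6 ARG1- libraries lay below all ARG1+ libraries, and the log2 fold change of 3.06 was not called (SE 1.53, edgeR adjusted p = 0.21). Without ARG1- male 5 it was 5.83 (edgeR adjusted p = 0.0123). That library is the one that overlapped the ARG1+ range, so its omission removes the overlap. *Kcnj9* also passed the filter on low counts through ARG1+ libraries alone. Its values, with or without that library, are given as a description. *Kcnj9* lies next to *Kcnj10* on chromosome 1, on the opposite strand and with 4.01% of its exon bases in another annotated gene, and ARG1- male 5 was also the highest ARG1- library for *Kcnj10*. *Kcnj13* had up to 3.36 CPM and 0 counts in 5 libraries, and 49.1% of its exon bases lie in the exons of *Gigyf2* on the opposite strand, so that its counts cannot be told apart from those of *Gigyf2* without strand. *Kcnj8*, which encodes the pore of the ATP-sensitive channel of pericytes, had 0 counts in all 12 libraries, as did *Abcc9*, which encodes its regulatory partner.

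*Kcne1l* (ENSMUSG00000090122, chrX:142304752-142306294, minus strand) encodes a small single-pass subunit that modulates voltage-gated channels. It had 44, 48 and 76 counts in the ARG1- female libraries, 23, 0 and 0 counts in the ARG1- male libraries, and 0 counts in all 6 ARG1+ libraries. Thus 4 ARG1- libraries, 3 of them female, stood apart from the rest, and the populations overlapped at 0. The ARG1- mean was 0.737 ± 0.627 CPM (SD, n = 6 libraries), at least 8.79-fold above the mean floor of 3 counts per ARG1+ library, 0.0838 CPM. As *Kcne1l* passed the filter on low counts through ARG1- libraries alone, the fit could only find it lower. The call (edgeR adjusted p = 0.0294) was kept in 4 of the 12 fits that left out a library, and the adjusted p ranged from 0.024 to 0.0615. Leaving out any 1 of the 3 ARG1- female libraries, any 1 of the 3 ARG1+ female libraries, or ARG1+ male 12 or 16 ended it.

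Other auxiliary genes were not called by edgeR. *Kcnip3* encodes a calcium-binding partner of Kv4 channels that is also known as the transcriptional repressor DREAM. It had 5.96, 13.5 and 26.3 CPM in ARG1- females, 6.72, 7.72 and 20.7 CPM in ARG1- males, and 13 to 22.8 CPM in ARG1+ libraries. The ARG1+ range lay within the ARG1- range, and the log2 fold change was 0.39 (SE 0.38, 95% interval -0.43 to 1.21, edgeR adjusted p = 0.546). *Kcnip1*, another Kv4 partner, had 28, 79 and 0 counts in ARG1- females and 84, 0 and 1 in ARG1- males, against 4 counts in ARG1+ female 15 and 0 in the other ARG1+ libraries. It too passed the filter through ARG1- libraries alone, and its values are a description. It was not called by edgeR (adjusted p = 0.0588) and was called lower by DESeq2 (adjusted p = 0.0307). The beta subunits *Kcnab2* and *Kcnab3*, cytosolic partners of Kv1 channels, had 0 to 2.34 and 0 to 5.21 CPM in ARG1- and 0.504 to 1.72 and 0 to 4.61 CPM in ARG1+ libraries. *Kcnab3* shares 5.13% of its exon bases with the antisense gene *Kcnab3os*.

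*Kcnip1* is best known from neurons, and its counts lay mostly in ARG1- libraries. The 12 neuronal marker genes summed to 7.19 to 28.8 CPM in ARG1- and 2.76 to 12.3 CPM in ARG1+ libraries. Of the 9 tested, 8 were fitted lower in ARG1+, with a median log2 fold change of -1.69 over the 9. *Gad1* and *Slc32a1*, both markers of inhibitory neurons, had 0 counts in all 6 ARG1- libraries and were each over the floor in at least 1 ARG1+ library. The 10 oligodendrocyte lineage markers summed to 264 to 385 CPM in ARG1- and 171 to 262 CPM in ARG1+ libraries. Their part in the *Kcnip1* and *Kcne1l* counts was not tested. By edgeR, 1 of 8 tested astrocyte markers, 1 of 9 oligodendrocyte lineage markers, 1 of 4 monocyte markers and 1 of 5 erythroid markers were called, all lower in ARG1+. At an unadjusted p under 0.05 these lists held 2, 5, 2 and 4 markers, and DESeq2 called 2, 3, 1 and 4, all lower. Of microglial markers, 1 of 11 was called higher and 7 lower by edgeR and by DESeq2. None of the 9 neuronal, 5 endothelial, 3 pericyte and 5 border macrophage markers tested was called by edgeR, with 2, 1, 0 and 0 at an unadjusted p under 0.05 and 0, 1, 0 and 0 called by DESeq2. No neutrophil or lymphocyte marker passed edgeR's filter.

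The 38 genes over the floor in some libraries did not fade evenly toward 0. Of these, 27 reached 20 counts or more in at least 1 library, and 26 of the 27 had 0 counts in another library. Another measure is that 10 genes were over the floor in 1 library only, such as *Kcnd2*, an A-type channel of neurons, with 85 counts in ARG1+ female 7, and *Kcnh3*, with 84 in ARG1- female 13. *Kcnk2*, the mechanosensitive channel TREK-1, had 155 counts in ARG1- female 13, 49 in ARG1- male 5 and 0 in the other 10 libraries. *Kcnc2*, *Kcnab3* and *Kcnj16* likewise combined values of over 100 counts in single libraries with 0 in others of the same group. These genes were named after their values were seen, apart from *Kcnc2*, *Kcnab3* and *Kcnj16*.

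**Figure D5:**
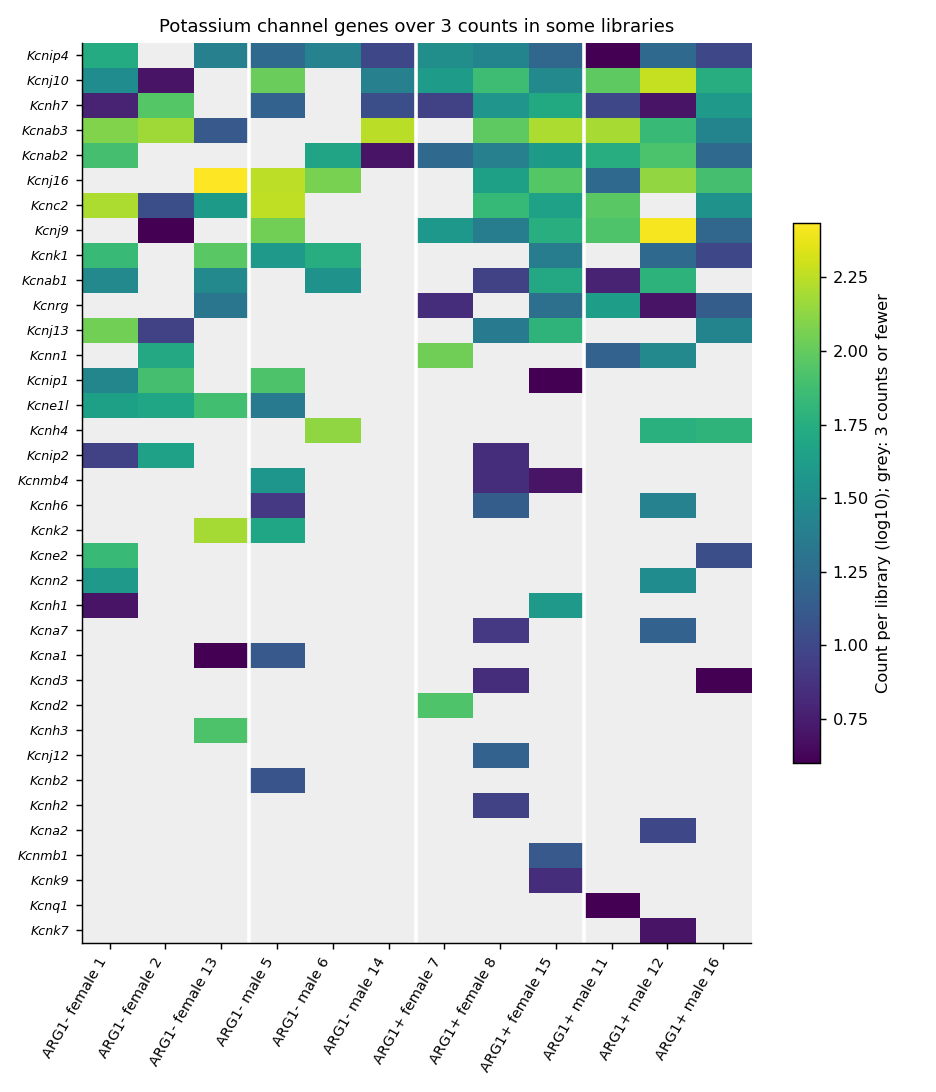
Counts (log10 color scale) of 36 of the 38 potassium channel genes (rows) over 3 counts in some of the 12 libraries (columns, grouped by population and sex), with 3 counts or fewer in grey. Single cells of the grid with over 100 counts stand beside grey cells of the same group, as for *Kcnj16* and *Kcnc2*.

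Within each sex, few members were called. In females, *Kcnk12* was the 1 member called by edgeR, against 6.76% of all genes tested. At an unadjusted p under 0.05 there were 4 members (14.3%), against 22.9% of all genes, and DESeq2 called 3 (8.57%, *Kcnj2*, *Kcnj9* and *Kcnk12*), against 14.3%. *Kcnj9* had 0, 4 and 0 counts in the ARG1- female libraries, and its call is given as a description. In males edgeR called 0 members, against 5.13% of all genes. At an unadjusted p under 0.05 there were 3 members (10.7%), against 22.8% of all genes, and DESeq2 called 2 (6.45%, *Kcnj2* and *Kcnn1*), against 14.5%. For the difference of the ARG1 effect between the sexes, edgeR called 0 members and 0% of all genes tested. At an unadjusted p under 0.05 there were 2 members (7.14%, *Kcnk12* and *Kcnk13*), against 9.32% of all genes, and DESeq2 called 2 (5.71%, *Kcnk12* and *Kcnn1*), against 1.49%. *Kcnn1* had 0 counts in all 3 ARG1- male libraries.

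Females and males were also compared within each population. In ARG1- microglia, edgeR called 0 members, against 0.0946% of all genes tested, and 6 members (21.4%) had an unadjusted p under 0.05, against 10% of all genes, among them *Kcnk12* and *Kcnk13*. The log2 difference of females from males was 0.52 for *Kcnk12* (95% interval 0.14 to 0.89, edgeR adjusted p = 0.433) and 0.50 for *Kcnk13* (0.10 to 0.89, edgeR adjusted p = 0.447). DESeq2 called 1 member there, *Kcnn1* (3.23%), against 2.26% of all genes. That call rests on 51 counts in ARG1- female 2 beside 0 counts in every other ARG1- library, and is given as a description. In ARG1+ microglia, edgeR called 0 members, against 0.0355% of all genes tested, and DESeq2 called 0, against 0.222%. At an unadjusted p under 0.05 there were 2 members (7.14%), against 3.12% of all genes. They were *Kcnk12*, with a log2 difference of females from males of -0.60 (95% interval -0.98 to -0.23), and *Kcnd1*, with -0.51.

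Another 6 lists, of sodium pump, cation-chloride cotransport, other cation conductance, anion and volume channel, purinergic receptor and inflammasome genes, held 62 genes in all, of which 51 were tested. Of these, 8 were called higher and 9 lower in ARG1+ microglia, 33.3% in all, against the 15.9% of all genes tested given above. The lists were chosen with earlier results of these data known, and 43 of the 62 genes were over the floor in all 12 libraries. The 33.3% is therefore a description and not a sign of enrichment. Of the 8 tested cation-chloride cotransport genes, 2 were higher. *Slc12a2*, the cotransporter NKCC1 that takes up sodium, potassium and chloride, rose by 1.11 on the log2 scale (SE 0.18, edgeR adjusted p = 0.002), and the kinase *Wnk1* that activates it rose by 0.76 (SE 0.14, edgeR adjusted p = 0.00366).

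Of the 5 purinergic receptor genes, *P2ry12*, the receptor that acts on THIK-1, fell by 0.55 (SE 0.09, edgeR adjusted p = 0.00243), *P2ry13* also fell and *P2rx4* rose. Of the 7 genes of the inflammasome triggered by potassium efflux, *Pycard* fell by 0.66 (SE 0.08, edgeR adjusted p = 0.00068), *Il18* also fell, and *Nlrp3* was not called (log2 fold change 0.65, SE 0.27, edgeR adjusted p = 0.127). Among 16 other tested cation conductances and regulators, *Trpm7* and *Stim1* rose and the calmodulin genes *Calm2* and *Calm3*, whose protein is the calcium sensor of *Kcnn* channels, fell. Of 8 anion and volume channel genes tested, *Clic4* rose and *Clic1* fell. Without ARG1+ male 12, 11 of the 62 genes were called in place of 17.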

How the data were processed

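RNA-seq was analyzed in 12 libraries, with 3 in each of 4 groups by ARG1 status and sex. Per the labels and the study's methods, the authors made amplified cDNA with SMART-Seq v4, built libraries with Nextera XT, aligned reads to GRCm38 with STAR 2.6.1d and deposited raw counts per gene from featureCounts 1.5.1. The annotation release and the strand setting are not given in the sources used here. All further values were computed from the deposited counts. Gene symbols, types and exon lengths came from GENCODE M21 (GRCm38), which matched 55227 of 55487 identifiers. Libraries were grouped by the labels. The main test was edgeR 4.0.16 (R 4.3.3), quasi-likelihood, with TMM factors, filterByExpr on the 4 groups, terms for ARG1 status and sex, and Benjamini-Hochberg adjustment over 16908 genes at a limit of 0.05. Effects within a sex, their difference and sex effects came from a fit of the 4 group means. SE is the log2 fold change divided by the square root of F, and 95% intervals use the test's degrees of freedom. CPM is the count relative to the TMM-scaled total, and RPKM is CPM per kilobase of merged exons. A member was described singly if it was called, or if it was tested and had a mean of at least 1 CPM in a population, or if it was among 11 channels known from microglia, macrophages, astrocytes or pericytes. Members outside this rule are named for counts of 5 or fewer or were chosen after their values were seen. Alternatives were DESeq2 size factors, upper-quartile factors, other filters, DESeq2 1.42.0, other terms, thinned counts, 1 sex alone, glmTreat and each library left out. Some genes and sequences are not reported here. The main fit was tested on simulated data, in which most of the genes given a known change were not called. A member that was not called may therefore still differ between the populations. The members, the gene lists and the lists of cell type markers were chosen with earlier results of these data known. By the study's methods both populations were sorted from pooled tissue of a litter. The labels do not say which ARG1+ and ARG1- libraries belong together, so p-values treat the libraries as independent.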

Additional observations from a re-analysis of the deposited data

Results flagged for a closer look

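In each population of 6 libraries, the genes described singly were searched for a library whose gap to its nearest neighbor exceeded Dixon's 95% limit for the range. Of 37 such groups, 5 had one. For normally distributed values, about 1 in 20, or 1.85, would be reached by chance. Levels of genes with counts of 0 in some libraries are not so distributed, so no excess can be read from these numbers. *Kcnj2* had 35.7 CPM in ARG1+ female 7, against 6.16 to 17.1 CPM in the other 5 ARG1+ libraries. *Kcna3* had 10.4 CPM in ARG1- female 13, against 1.44 to 3.78 CPM in the other ARG1- libraries. *Kcnj9* had 2.96 CPM in ARG1- male 5, against at most 0.0998 CPM in the others, and 5.40 CPM in ARG1+ male 12, against 0.474 to 1.95 CPM. *Kcnj10* had 2.75 CPM in the same ARG1- male 5, against at most 0.93 CPM in the others.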

How the results depend on the processing

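No paired analysis was possible because no replicate number is shared between groups in the labels, which do not say which ARG1+ and ARG1- libraries came from the same pool of tissue. The number of members called, 2, was 1 with at least 10 counts in every library, 4 by DESeq2 and 0 in male libraries alone, and 1 to 3 with a library left out (1 without ARG1- female 1, ARG1+ female 7, 8 or 15, or ARG1+ male 12 or 16). Members called higher, 1, became 2 by DESeq2 and 0 in female or male libraries alone, and 1 to 2 with a library left out (2 without ARG1- male 5). Members called lower, 1, became 0 with at least 10 counts or in males alone, 2 by DESeq2, with a term for libraries numbered 13 to 16 or in females alone, and 0 to 1 with a library left out (0 without the same 6 libraries). Within females the 1 member became 2 with at least 10 counts, 3 by DESeq2, and 0 to 2 with a library left out (0 without ARG1+ female 7 and 2 without ARG1- male 5). By DESeq2, 0 became 2 in males, 2 for the difference between the sexes and 1 for sex in ARG1- microglia. *Kcnn1*, whose calls are a description, was among each of these. The 17 genes called in the 6 lists of ion transport and signaling genes became 8 in females alone, 0 in males alone, 10 with glmTreat against 1.2-fold, and 11 to 19 with a library left out (11 without ARG1+ male 12). In male libraries alone, 1 gene in all was called. Signs turned for genes that were not called: *Kcna3* in females alone (-0.08), and *Kcnd1* (0.10), *Kcng2* (0.11) and *Kcnk13* (0.27) in males alone. With a library left out, log2 fold changes spanned -0.24 to 2.05 for *Kcnab3*, -1.09 to 1.33 for *Kcnc2* (1.33 without ARG1- male 5), -0.59 to 0.23 for *Kcng2*, -0.91 to 0.02 for *Kcnj14*, -0.79 to 1.43 for *Kcnj16* (1.43 without ARG1- female 13) and -0.14 to 0.02 for *Kcnk13*. They spanned 0.69 to 1.59 for *Kcnma1* and -0.72 to -0.03 for *Kcnn4*, which kept their signs. The cause of these changes was not tested, beyond the fewer samples or genes of some settings. *Kcnj2* kept its sign in 24 of 24 alternatives and its call in 22. Other scalings moved the median of all genes by at most 0.04 on the log2 scale. By counting error alone, the floor of 3 counts allows a level of up to 0.0511 to 0.102 CPM in a library with a count of 0. Members over the floor numbered 23 in the deepest library, ARG1- female 13, and 29 in the smallest, ARG1+ female 8. The part of depth in the sparse genes was not tested.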

Other observations

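The 5 *Kcn*-named genes that do not encode protein were not counted among the 94. *Kcnq1ot1*, the imprinted antisense RNA of the *Kcnq1* locus, was present in all 12 libraries at 19.3 ± 9.57 CPM in ARG1- and 19.3 ± 8.24 CPM in ARG1+ microglia (SD, n = 6 libraries each), whereas *Kcnq1* itself never exceeded 4 counts. Its log2 fold change was -0.03 (SE 0.40, edgeR adjusted p = 0.973). By sex, it had 5.76, 16.4 and 22.3 CPM in ARG1- females, 14.4, 22.8 and 34.2 CPM in ARG1- males, 20.4, 21.1 and 34.2 CPM in ARG1+ females and 12, 12.6 and 15.6 CPM in ARG1+ males. All ARG1+ female libraries thus lay above all ARG1+ male libraries, and the share of all genes separated in this way was not computed. The difference of the ARG1 effect between the sexes was 1.60 and was not called (95% interval 0.18 to 3.01, edgeR adjusted p = 0.499). *Kcnmb4os1* and *Kcnmb4os2* had 22 and 13 counts in ARG1- male 5 and at most 5 counts elsewhere. They lie antisense to *Kcnmb4* and cover 10.7% and 20.8% of its exon bases. *Kcnmb4* had 37 counts in the same library and 7, 5 and 2 in the only others where it was counted, which equal the summed counts of the antisense genes there. The same reads may have been counted for each gene, and without strand these values cannot be told apart. *Kcnab3os* had 0 to 27 counts, and *Kcnd3os* had 0 counts in all libraries.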
